A study of Homo sapiens with 16 samples.

Results

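The 9 genes described here are negative regulators and one output of MAPK signalling: the dual-specificity phosphatases DUSP2, DUSP4, DUSP5, DUSP6 and DUSP10, the Sprouty family genes SPRED1, SPRED2 and SPRY2, and the ETS transcription factor gene ETV5. They were chosen by symbol from the read count table of the series, which holds 23354 genes, and all 9 were among the 14215 genes with enough counts to be tested. RNA-seq was carried out on 16 libraries of total RNA from the human multiple myeloma cell lines MM1S, which is glucocorticoid sensitive, and MM1R, its glucocorticoid resistant counterpart. Both lines were grown in RPMI-1640 with fetal bovine serum and, for 48 h, given vehicle (Veh), 0.1 µM TAK-981 (TAK), 1 µM dexamethasone (Dex), or 0.1 µM TAK-981 together with 1 µM Dex (combo). Each of the 8 groups of line and treatment had 2 libraries. TAK-981 inhibits the SUMO activating enzyme, and Dex is a synthetic glucocorticoid that acts through the glucocorticoid receptor, encoded by NR3C1. Each line stands for 1 cell line at 1 dose and 1 time, and nothing in the labels says that the 2 libraries of a group came from separate cultures. The p-values therefore measure the spread between libraries of a group, pooled over all 8 groups, which may be technical. This spread was unequal. The chi-square of the counts between the 2 libraries, per degree of freedom, was 21.2 in MM1S TAK and 19.2 in MM1S Dex. It was 2.08 to 9.14 in the other groups, so the pooled estimate can understate the spread in MM1S TAK and MM1S Dex.

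MAPK cascades carry signals from growth factor receptors and stress through layers of kinases to ERK, JNK and p38. ERK activity raises the transcription of its own inhibitors, so that dual-specificity phosphatases strip phosphate from the MAPKs while Sprouty and SPRED proteins act further up, at the level of receptors, RAS and RAF. The transcripts of genes induced by ERK, such as DUSP6 and ETV5, are therefore widely read as a record of recent ERK signalling. In myeloma, where this pathway is often active, they belong to the commonly measured readouts. DUSP10 acts mainly on JNK and p38 and is not counted among these readouts. Phosphorylation was not measured here, and only transcript levels are given.

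Promoter sequences are shown first for the members with the largest changes or the clearest difference between the lines for which RefSeq held an entry, so that their base composition and ETS core letters can be set beside the expression values below. RefSeq (GRCh38.p14) gave windows for 6 of the 9 members. The 250 bases before the start are printed 5′ to 3′ on the strand of the gene, with GGAA, the core that ETS factors such as ETV5 recognise, in capitals, and as TTCC where it lies on the opposite strand. They cover chr1:221742090-221742339 (minus strand) for DUSP10, chr15:38252586-38252835 (plus strand) for SPRED1, and chr2:65432600-65432849 (minus strand) for SPRED2.
DUSP10: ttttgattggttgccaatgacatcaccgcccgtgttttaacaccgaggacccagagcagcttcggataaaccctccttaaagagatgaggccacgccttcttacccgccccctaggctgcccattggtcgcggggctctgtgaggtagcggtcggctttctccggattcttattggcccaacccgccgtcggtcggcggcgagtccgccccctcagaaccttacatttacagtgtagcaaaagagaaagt
SPRED1: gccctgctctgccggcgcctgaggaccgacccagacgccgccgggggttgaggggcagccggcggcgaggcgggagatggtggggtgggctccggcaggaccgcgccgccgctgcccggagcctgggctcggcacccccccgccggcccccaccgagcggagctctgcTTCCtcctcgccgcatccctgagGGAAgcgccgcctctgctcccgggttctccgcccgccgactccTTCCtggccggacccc
SPRED2: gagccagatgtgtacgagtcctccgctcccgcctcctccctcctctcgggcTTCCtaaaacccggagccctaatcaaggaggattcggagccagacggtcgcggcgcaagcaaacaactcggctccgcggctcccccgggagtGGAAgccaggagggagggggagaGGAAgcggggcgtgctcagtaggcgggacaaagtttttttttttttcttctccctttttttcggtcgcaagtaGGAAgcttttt
The DUSP10 window had 0 GGAA matches on either strand, the SPRED1 window 3 and the SPRED2 window 4, while 92.7% of all 35116 RefSeq windows of this length held at least 1. GC content was 56.4% for DUSP10, 78.4% for SPRED1 and 58.8% for SPRED2. Both strands were also searched for the longer ETS site CCGGAAG (found in 8.52% of all windows), the cyclic AMP element TGACGTCA (1.65%), the AP-1 site TGACTCA (4.2%), the E-box CACGTG (6.34%) and the glucocorticoid response element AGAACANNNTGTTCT (0.00285%). The longer ETS site contains GGAA, so its matches are also GGAA matches. Among the 6 windows the only match to these longer motifs was 1 E-box in the DUSP2 window, starting 113 bases before the start of the gene. The windows of DUSP2, DUSP6 and SPRY2 held 4, 6 and 3 GGAA matches. A match is a stretch of letters and no proof of a bound site, and an absent match says only that these letters are not in this window.

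Library totals ranged from 15707587 to 20644510 counts in MM1S and from 18987739 to 24796539 in MM1R. NR3C1 lay between 239 and 357 counts per 1000000 (CPM, with library sizes scaled by TMM) in the 8 MM1S libraries and between 16.7 and 20.5 CPM in the 8 MM1R libraries. Of 10 plasma cell markers, 9 were expressed and CD27 was at or near 0 (at most 0.463 CPM). The summed plasma cell markers were at 5209 to 5306 CPM in vehicle MM1S, at 4088 to 4306 CPM after Dex and at 3669 to 3842 CPM after the combo, and at 6056 to 6685 CPM across MM1R. Markers of other cell types were low: summed B cell markers reached at most 0.557 CPM, T cell markers 5.46 CPM and erythroid markers 12.4 CPM. The 4 myeloid markers summed to 0.94 to 1.65 CPM in the vehicle libraries and to 3.40 to 4.10 CPM in the TAK libraries, and the 3 T cell markers in MM1R were at 4.63 and 4.70 CPM with vehicle and at 2.17 and 2.90 CPM with TAK. The 4 stromal markers in MM1S summed to 3.57 to 3.74 CPM with vehicle, 1.71 to 2.11 CPM with TAK, 0.45 to 0.78 CPM with Dex and 0.81 to 0.93 CPM with the combo. Epithelial markers reached at most 1.66 CPM. The part of these shifts in the results below was not tested. In bulk libraries of cultured cell lines such as these, fewer cells expressing a marker and less of its RNA per cell cannot be told apart.

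In vehicle-treated cells the members spanned a wide range of levels, which were compared between genes per kilobase of the gene length given with the counts. DUSP5, a nuclear phosphatase specific for ERK (hg19 chr10:112257625-112271302), had the highest level, at 195 ± 7.0 CPM per kb (SD, n = 2) in MM1S and 270 ± 2.3 CPM per kb in MM1R. That placed it above 98.7% of tested genes in MM1S and above 99.0% in MM1R. DUSP4, an inducible nuclear phosphatase, followed at 33.4 ± 0.48 CPM per kb in MM1S and 66.8 ± 0.67 CPM per kb in MM1R. DUSP6, the cytoplasmic ERK phosphatase (chr12:89741837-89746296), followed in both lines at 22.6 ± 0.95 and 25.5 ± 0.020 CPM per kb. The rest of the order in MM1S was SPRED2, SPRED1, ETV5, DUSP2, DUSP10 and SPRY2, and in that line the libraries of neighbours in the order did not overlap. In MM1R, ETV5 stood above SPRED1, and SPRED1 (7.49 ± 0.046 CPM per kb) and DUSP2 (7.40 ± 0.70 CPM per kb) overlapped. SPRY2, an inhibitor of receptor tyrosine kinase signalling (chr13:80910112-80915086), was close to the detection limit everywhere, with 3 to 19 counts per library.

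**Figure D1:**
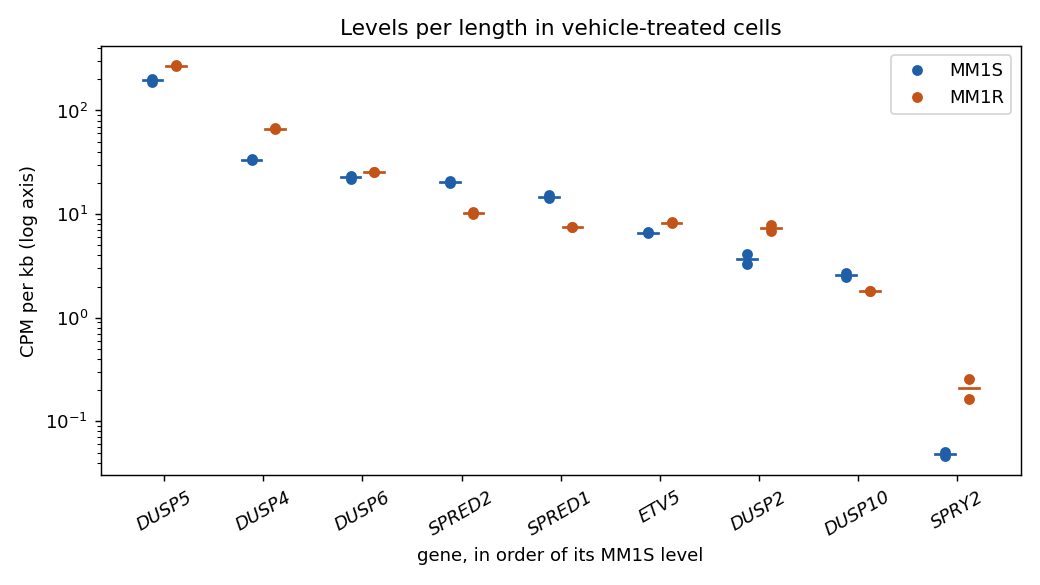
Levels per gene length in vehicle-treated MM1S (blue) and MM1R (orange) cells, in CPM per kb on a log axis; points are libraries (2 per line) and short lines their means. DUSP5 stands highest at 195 and 270 CPM per kb and SPRY2 lowest, and SPRED1 and SPRED2 are the members with the largest drop from MM1S to MM1R.

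The comparison of the untreated lines asked where the resistant line starts from. All 9 members differed between vehicle MM1R and vehicle MM1S, 6 being higher in MM1R and 3 lower, where 48.2% of all tested genes differed (25.6% higher and 22.6% lower). The phosphatases DUSP2, DUSP4, DUSP5 and DUSP6 were higher in the resistant line, whereas the RAS pathway inhibitors SPRED1 and SPRED2 and the JNK and p38 phosphatase DUSP10 were lower. The members' median log2 difference was 0.33, beside 0.0068 over all tested genes.

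DUSP4 was at 242 and 247 CPM in the vehicle libraries of MM1S and at 486 and 493 CPM in those of MM1R. The level was higher in MM1R by 1.00 on the log2 scale (SE 0.063, edgeR quasi-likelihood test with Benjamini-Hochberg adjustment, adjusted p = 7.45e-10). DUSP2, a nuclear phosphatase first known from activated lymphocytes (chr2:96808908-96811179), was at 5.50 and 6.92 CPM in MM1S, and MM1R had 11.6 and 13.3 CPM. Its level was 2.01-fold higher in MM1R (edgeR adjusted p = 0.000672), and neither gene's libraries overlapped between the lines. DUSP5 was 1.38-fold higher (edgeR adjusted p = 1.2e-06), ETV5 1.25-fold higher (edgeR adjusted p = 0.00079) and DUSP6 1.13-fold higher (edgeR adjusted p = 0.0232). The DUSP6 call was lost when library sizes were used unscaled, when no filter on low counts was applied, or without vehicle MM1S library 1 or either vehicle MM1R library. SPRY2 had 6 counts over the vehicle libraries of MM1S, 3 in each, and 31 over those of MM1R, 12 and 19. The ratio of these counts, scaled to library size, was 4.35 (exact 95% interval 1.79 to 12.8, for counting error only; edgeR adjusted p = 0.0033).

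SPRED1, which recruits neurofibromin to switch RAS off (chr15:38545052-38649450), was at 103 and 110 CPM in vehicle MM1S, while the vehicle MM1R libraries had 54.0 and 54.5 CPM. SPRED2, its paralogue with the same role (chr2:65537985-65659656), was at 96.4 and 92.3 CPM in MM1S, against 48.6 and 46.3 CPM in MM1R. Both were clearly separated, with the MM1R level lower by 0.98 on the log2 scale for SPRED1 (−0.98 ± 0.089, edgeR adjusted p = 8.29e-08) and by 0.99 for SPRED2 (−0.99 ± 0.066, edgeR adjusted p = 1.26e-09). DUSP10, which acts mainly on JNK and p38 (chr1:221874764-221915516), was at 8.93 and 8.10 CPM in MM1S, against 5.995 and 5.896 CPM in MM1R, a log2 difference of −0.52 ± 0.13 (edgeR adjusted p = 0.00275).

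**Figure D2:**
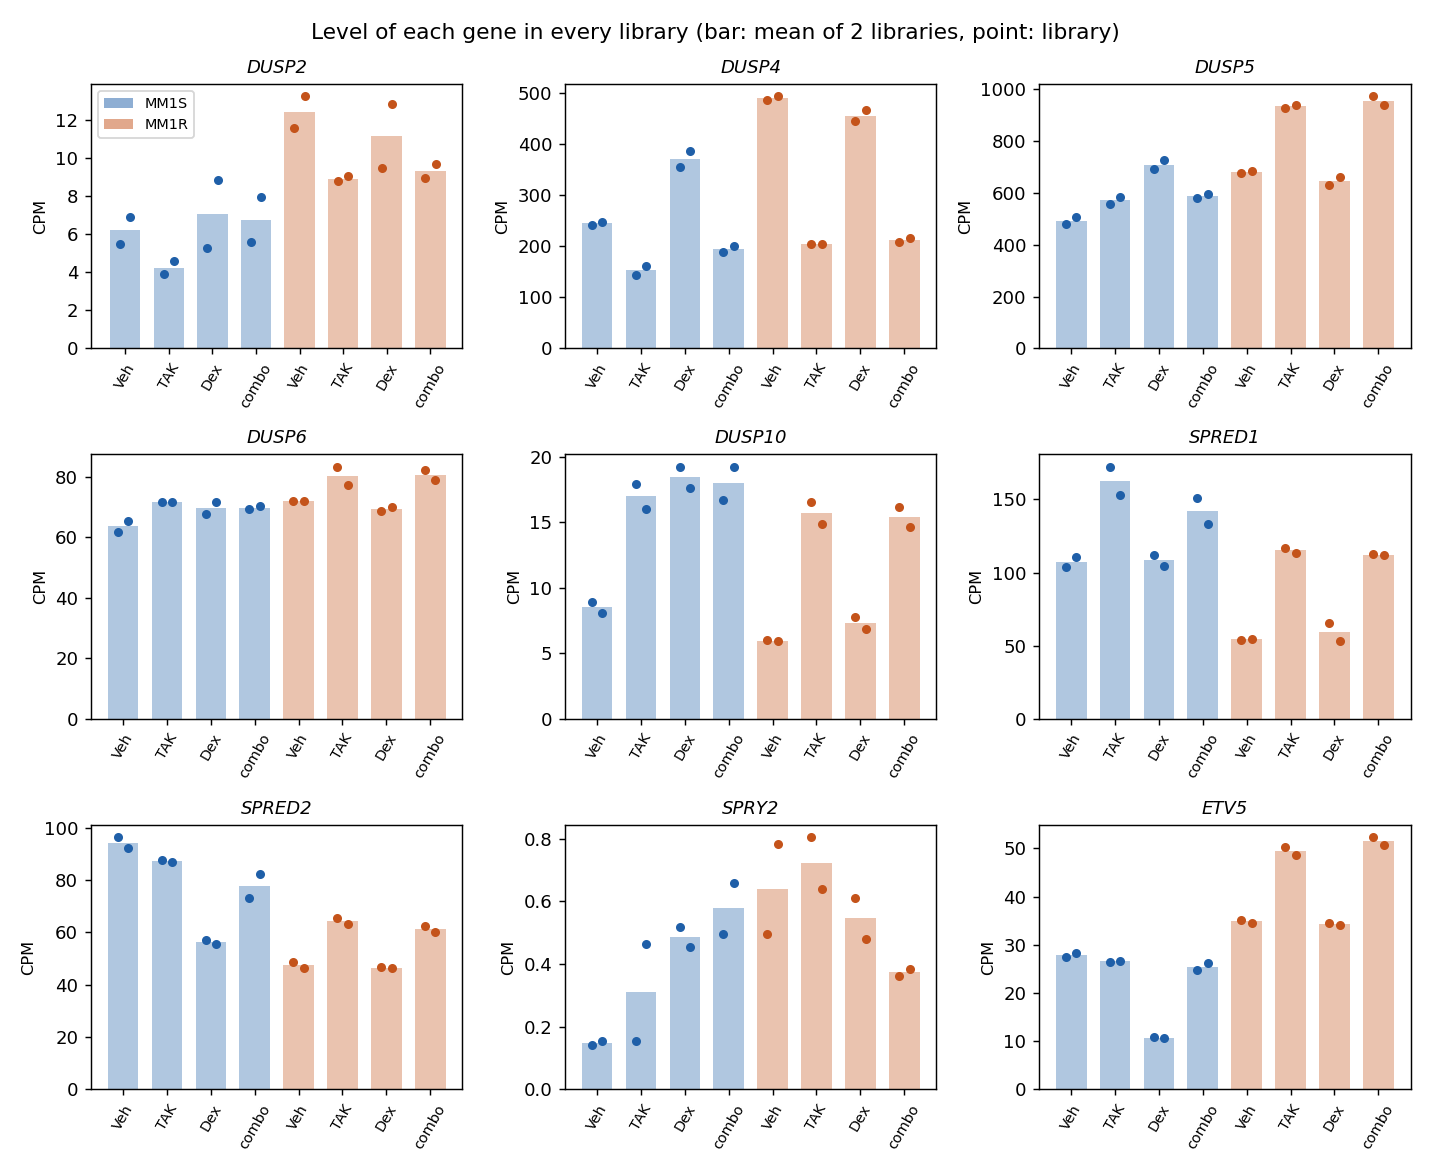
Level of each gene in every library, in CPM scaled by TMM (linear axes starting at 0); bars are means of 2 libraries, points are the libraries, blue for MM1S and orange for MM1R, by treatment. DUSP4 falls with TAK and combo in both lines, ETV5 drops in MM1S after Dex alone (10.6 and 10.8 CPM), and SPRY2 lies below 1 CPM in all libraries.

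TAK-981 was then compared with vehicle in each line, to see how inhibition of SUMOylation moved these genes. After TAK-981, DUSP10 and SPRED1 rose and DUSP4 fell in both lines, DUSP5 and DUSP6 rose by smaller amounts in both, and SPRED2 and ETV5 rose in MM1R. In MM1S 4 members rose, 1 fell and 4 did not pass the test, while 49% of all tested genes changed (25.2% higher and 23.7% lower). In MM1R 6 rose, 2 fell and 1 did not pass, while 53.4% of all tested genes changed (25.8% higher and 27.6% lower). With so many genes of all kinds called, little can be read from these counts alone, and the sizes of the single changes follow. The members' median log2 fold change was 0.17 in MM1S and 0.44 in MM1R, beside medians over all genes of 0.037 and 0.0043.

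DUSP4 had the steepest fall. It went from 242 and 247 CPM with vehicle to 143 and 162 CPM with TAK in MM1S, and from 486 and 493 CPM to 204 and 205 CPM in MM1R. No TAK library reached the vehicle libraries of its line, and the TAK libraries of MM1R came down to below the vehicle level of MM1S. The log2 fold change was −0.68 ± 0.064 in MM1S (a change of −37.7%, edgeR adjusted p = 6.42e-08) and −1.26 ± 0.064 in MM1R (−58.3%, edgeR adjusted p = 2.46e-11). The fall was larger in MM1R by 0.58 on the log2 scale (interaction −0.58 ± 0.090, edgeR adjusted p = 0.00114). DUSP2 was at 3.89 and 4.58 CPM with TAK in MM1S, under both vehicle libraries, but the log2 change of −0.55 ± 0.25 did not pass (edgeR adjusted p = 0.0776). It did pass without the filter on low counts, with only the groups compared, and without either MM1S Dex library, and the lines' difference in this change was 0.068 ± 0.31 (edgeR adjusted p = 0.925). In MM1R it was at 8.80 and 9.06 CPM with TAK against 11.6 and 13.3 CPM, a log2 change of −0.48 ± 0.19 that passed narrowly (edgeR adjusted p = 0.0475) and was lost with DESeq2 and when any 1 of 10 libraries was left out.

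DUSP10 rose most among the phosphatases. In MM1S it went from 8.93 and 8.10 CPM to 17.9 and 16.01 CPM, and in MM1R from 5.995 and 5.896 CPM to 16.5 and 14.8 CPM, with no overlap in either line. These are rises of 1.99-fold (log2 0.99 ± 0.12, edgeR adjusted p = 9.97e-07) and 2.63-fold (log2 1.40 ± 0.12, edgeR adjusted p = 2.22e-08). The lines' difference of 0.40 ± 0.17 in this change did not pass (95% interval 0.052 to 0.75 before adjustment, edgeR adjusted p = 0.175). DUSP5 was at 559 and 585 CPM with TAK in MM1S against 480 and 505 CPM, and at 930 and 940 CPM in MM1R against 678 and 687 CPM. It rose 1.16-fold (edgeR adjusted p = 0.00263) and 1.37-fold (edgeR adjusted p = 1.15e-06), and the MM1S call was lost when only the groups compared were fitted. DUSP6, the gene most often used as a readout of ERK activity, was at 71.7 CPM in both TAK libraries of MM1S against 61.7 and 65.5 CPM, and at 83.3 and 77.3 CPM in MM1R against 71.9 CPM in both. Its rises of 1.13-fold (edgeR adjusted p = 0.0274) and 1.12-fold (edgeR adjusted p = 0.0348) were small, and both calls were lost with DESeq2, without the filter on low counts, and on leaving out single libraries: vehicle library 1 or either TAK library in MM1S, and either vehicle library or TAK library 1 in MM1R.

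Among the Sprouty family, SPRED1 was at 172 and 153 CPM with TAK in MM1S against 103 and 110 CPM, and at 117 and 113 CPM in MM1R against 54.0 and 54.5 CPM. It rose 1.52-fold (log2 0.60 ± 0.086, edgeR adjusted p = 1.23e-05) and 2.12-fold (log2 1.09 ± 0.089, edgeR adjusted p = 1.38e-08), so that its MM1R libraries with TAK came to lie just above those of vehicle MM1S. The larger rise in MM1R passed (difference 0.48 ± 0.12, edgeR adjusted p = 0.0337), a call lost on leaving out any 1 of 9 libraries. SPRED2 was at 87.5 and 87.0 CPM with TAK in MM1S, a log2 change of −0.11 ± 0.064 that did not pass (95% interval −0.25 to 0.022, edgeR adjusted p = 0.158). SPRED2 did pass there as lower with unscaled library sizes (edgeR adjusted p = 0.0466). In MM1R it rose from 48.6 and 46.3 CPM to 65.4 and 63.1 CPM, or 1.36-fold (edgeR adjusted p = 2.34e-05). The lines differed in this response by 0.55 ± 0.092 on the log2 scale (edgeR adjusted p = 0.00196). For SPRY2 the 12 counts with TAK in MM1S, 9 of them in 1 library, gave a ratio of 2.11 to vehicle (exact 95% interval 0.73 to 6.84; edgeR adjusted p = 0.195), and in MM1R 28 counts against 31 gave 1.12 (0.65 to 1.94; edgeR adjusted p = 0.728), so no change was detectable at this depth.

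ETV5, an ETS factor of the PEA3 group whose gene is an ERK output (chr3:185764106-185826901), was at 26.4 and 26.7 CPM with TAK in MM1S against 27.3 and 28.2 CPM with vehicle. The log2 change of −0.067 ± 0.072 did not pass (95% interval −0.22 to 0.083, edgeR adjusted p = 0.465). In MM1R it went from 35.1 and 34.6 CPM to 50.2 and 48.5 CPM, a 1.42-fold rise with no overlap (log2 0.50 ± 0.066, edgeR adjusted p = 4.86e-06). Set against each other, the 2 responses differed by 0.57 ± 0.098 (edgeR adjusted p = 0.00231). Over the members, 4 of 9 changed differently in the lines after TAK-981 (SPRED1, SPRED2 and ETV5 more upward in MM1R, DUSP4 more downward), beside 4.16% of all tested genes (3.19% more upward in MM1R and 0.978% more downward). That share was not stable. It stands for 592 genes, against 1313 without the filter on low counts and 2061 with a term for the replicate number. The members were also chosen with earlier results of these data known, so the 2 shares are not an independent comparison.

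**Figure D3:**
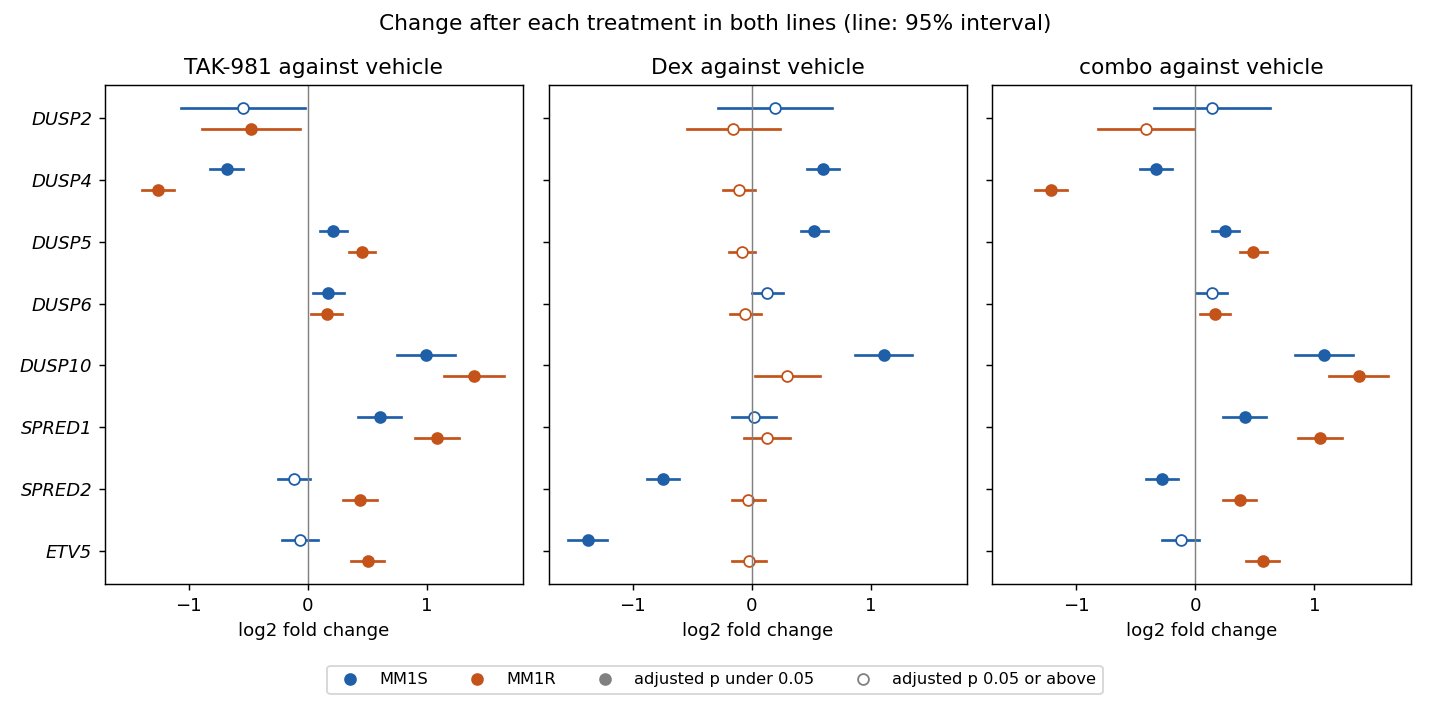
Log2 fold changes of 8 genes against vehicle of the same line after TAK-981, Dex and the combo, with 95% intervals; blue is MM1S and orange MM1R, and filled points have an adjusted p under 0.05. SPRY2 is left out for its low counts. After Dex, all MM1R points are open and lie between −0.15 and 0.30, while DUSP4, DUSP5, DUSP10, SPRED2 and ETV5 are filled in MM1S.

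Dex was compared with vehicle in the same way. In MM1S, DUSP4, DUSP5 and DUSP10 rose and SPRED2 and ETV5 fell, and in MM1R no member passed the test. Together with SPRY2, 4 members rose in MM1S, 2 fell and 3 did not pass, while 42.3% of all tested genes changed (20.8% higher and 21.5% lower). In MM1R edgeR called 0 of 9 members and 0% of all tested genes, and DESeq2 also called 0 genes. At an unadjusted p under 0.05, edgeR found 1 member, DUSP10, and 395 genes in all (2.78%). The vehicle libraries are shared by the TAK, Dex and combo comparisons within a line, so these are not independent of each other. FKBP5, a gene induced by the glucocorticoid receptor, was at 68.6 and 69.0 CPM with vehicle and at 1602 and 1725 CPM with Dex in MM1S, and at 93.0 and 96.4 CPM and 92.5 and 99.0 CPM in MM1R.

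Leaving aside SPRY2, whose counts were few, ETV5 had the largest change. In MM1S its level was 10.8 and 10.6 CPM with Dex against 27.3 and 28.2 CPM with vehicle, and in MM1R it was 34.4 and 34.0 CPM against 35.1 and 34.6 CPM. The MM1S libraries were far apart, whereas those of MM1R nearly touched. The log2 fold change was −1.38 ± 0.080 in MM1S (−61.5%, edgeR adjusted p = 1.4e-10) and −0.024 ± 0.067 in MM1R (95% interval −0.17 to 0.12), and the responses of the lines were 1.35 ± 0.10 apart (edgeR adjusted p = 2.08e-08). SPRED2 also fell in MM1S, from 96.4 and 92.3 CPM to 57.0 and 55.6 CPM (log2 −0.74 ± 0.066, edgeR adjusted p = 3.72e-08), still above its vehicle level in MM1R. With Dex in MM1R it was at 46.6 and 46.4 CPM, and the lines differed by 0.72 ± 0.094 (edgeR adjusted p = 1.21e-05). SPRED1, by contrast, was at 112 and 105 CPM with Dex in MM1S, a log2 change of 0.020 ± 0.087 (95% interval −0.16 to 0.20, edgeR adjusted p = 0.877).

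DUSP4 moved the opposite way to its TAK-981 response, rising in MM1S to 355 and 386 CPM (1.51-fold, log2 0.60 ± 0.063, edgeR adjusted p = 4.03e-07), while it was at 445 and 466 CPM with Dex in MM1R. The MM1R response less the MM1S response was −0.71 ± 0.089 (edgeR adjusted p = 7.85e-06). DUSP10 rose in MM1S to 19.2 and 17.6 CPM (2.16-fold, log2 1.11 ± 0.11, edgeR adjusted p = 2.78e-07), and it was at 7.78 and 6.85 CPM with Dex in MM1R, above both vehicle libraries but with a log2 change of 0.30 ± 0.13 that did not pass after adjustment. The lines differed by −0.81 ± 0.17 in this response (edgeR adjusted p = 0.00168). DUSP5 rose in MM1S to 691 and 728 CPM (1.44-fold, edgeR adjusted p = 2.34e-07) and was at 629 and 661 CPM in MM1R, below its vehicle libraries there, with a difference between the lines of −0.61 ± 0.075 (edgeR adjusted p = 6.28e-06). DUSP6 was at 67.5 and 71.7 CPM with Dex in MM1S (log2 0.13 ± 0.062, edgeR adjusted p = 0.1), and DUSP2 at 5.29 and 8.87 CPM, which spanned the vehicle libraries (edgeR adjusted p = 0.515).

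SPRY2 had 10 and 9 counts with Dex in MM1S against 3 and 3, a ratio of 3.30 (exact 95% interval 1.27 to 10.1; edgeR adjusted p = 0.0262). The call was lost with DESeq2 and without any of the 4 libraries compared. In MM1R, 25 counts with Dex against 31 gave a ratio of 0.853 (0.48 to 1.49). Over the members, 6 of 9 differed between the lines in their Dex response, 2 more upward and 4 more downward in MM1R, beside 28.1% of all tested genes (15% more upward and 13.1% more downward).

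The combo was compared with vehicle, with TAK-981 alone and with the sum of the single changes, the last as the interaction of TAK-981 with Dex in MM1S. Against vehicle in MM1S, DUSP5, DUSP10, SPRED1 and SPRY2 were higher and DUSP4 and SPRED2 lower, so that 6 of 9 members were called where 60.3% of all tested genes were (30.8% higher and 29.5% lower). In MM1R, DUSP5, DUSP6, DUSP10, SPRED1, SPRED2 and ETV5 were higher and DUSP4 was lower, 7 of 9 members where 51.5% of all genes were called (24.8% higher and 26.7% lower). Of these, the DUSP6 call (1.12-fold, edgeR adjusted p = 0.0284) was lost with DESeq2, without the filter on low counts, and without either vehicle or either combo library of MM1R. DUSP2 in MM1R, at 8.97 and 9.73 CPM with the combo, did not pass (edgeR adjusted p = 0.079) but did without the filter, with only the groups compared, and without either MM1S Dex library. The largest of these changes in MM1R were those of DUSP4, at 207 and 216 CPM with the combo (−56.9%, edgeR adjusted p = 4.24e-11), and of DUSP10, at 16.1 and 14.6 CPM (2.59-fold, edgeR adjusted p = 2.66e-08). SPRED1 was at 112 CPM in both MM1R combo libraries (2.07-fold, edgeR adjusted p = 2.26e-08) and at 151 and 133 CPM in MM1S (1.33-fold, edgeR adjusted p = 0.000472). SPRY2 had 8 and 12 counts with the combo in MM1S, a ratio of 3.96 to vehicle (exact 95% interval 1.53 to 12.1; edgeR adjusted p = 0.00679) whose call was lost without combo library 2.

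Adding Dex to TAK-981 in MM1R moved no member past the test (edgeR, 0 of 9 members and 0% of all genes), and log2 differences between combo and TAK lay between −0.069 and 0.064 for the members other than SPRY2. DESeq2 also called 0 genes there. At an unadjusted p under 0.05, edgeR found 1 member, SPRY2, with 8 counts in each combo library against 15 and 13, and 214 genes in all (1.51%).

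In MM1S the loss of ETV5 seen with Dex alone was not seen with the combo. ETV5 was at 24.8 and 26.2 CPM with the combo, above both Dex libraries (10.8 and 10.6 CPM) and just below both TAK libraries (26.4 and 26.7 CPM). The single log2 changes summed to −1.45 and the combo stood at −0.12 ± 0.073 (edgeR adjusted p = 0.147), so that the interaction was 1.32 ± 0.11 (edgeR adjusted p = 3.28e-07). SPRED2 was at 73.0 and 82.3 CPM with the combo, between the Dex libraries and the TAK libraries, with an interaction of 0.58 ± 0.092 (edgeR adjusted p = 0.000399). For both genes, then, the combo lay closer to TAK-981 alone than the sum of the single changes did.

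Rises did not add up either. DUSP10 was at 16.7 and 19.2 CPM with the combo, in the range of TAK alone (17.9 and 16.01 CPM) and Dex alone (19.2 and 17.6 CPM). The single changes summed to 2.10 on the log2 scale and the combo to 1.08 ± 0.12, an interaction of −1.03 ± 0.16 (edgeR adjusted p = 0.000261). DUSP5 was at 579 and 595 CPM with the combo, below the Dex libraries, with an interaction of −0.49 ± 0.075 (edgeR adjusted p = 0.000287). DUSP4, which TAK-981 lowered and Dex raised, was at 189 and 200 CPM with the combo, between the TAK libraries and the vehicle libraries. It was 1.28-fold higher with the combo than with TAK alone (edgeR adjusted p = 0.000308), and its interaction of −0.25 ± 0.090 did not pass (edgeR adjusted p = 0.0729) but did without MM1S TAK library 1 or MM1S Dex library 1. DUSP2 was also higher with the combo than with TAK alone, at 5.57 and 7.97 CPM against 3.89 and 4.58 CPM (1.61-fold, edgeR adjusted p = 0.0413), a call lost on leaving out any 1 of 5 libraries. These were the 2 members called between combo and TAK in MM1S, where 35.1% of all genes were (14.5% higher and 20.6% lower). Over the interaction, 4 of 9 members passed, 2 above and 2 below the sum, beside 14.9% of all genes (5.47% above and 9.48% below). With unscaled library sizes the share of calls above the sum went from 36.6% to 53.2% of all genes called.

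**Figure D4:**
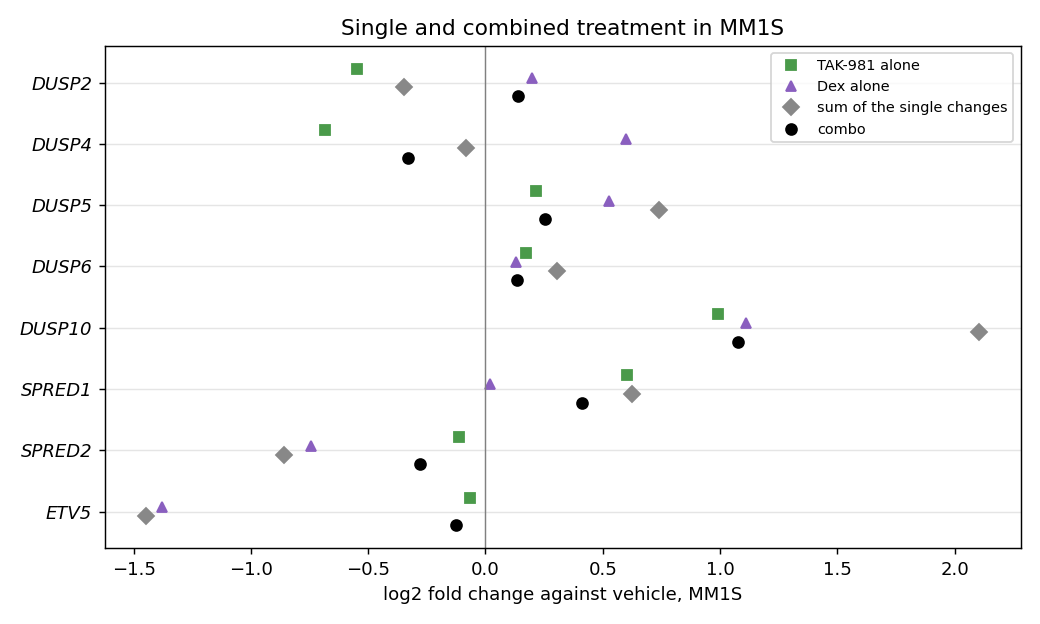
Log2 fold change against vehicle in MM1S for 8 genes after TAK-981 alone (squares), Dex alone (triangles) and the combo (circles), with the arithmetic sum of the single changes (diamonds); SPRY2 is left out for its low counts. The combo lies far from the sum for ETV5 (−0.12 against −1.45), DUSP10 (1.08 against 2.10), SPRED2 (−0.28 against −0.86) and DUSP5 (0.25 against 0.74).

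Other genes of the pathway are given for comparison. Their lists come from general knowledge but were drawn up with earlier results of these data known. The shares of all tested genes beside which their counts stand were 25.2% higher and 23.7% lower after TAK-981 in MM1S, 25.8% and 27.6% in MM1R, and 20.8% and 21.5% after Dex in MM1S, and the medians over all genes were 0.037, 0.0043 and 0.011. Of 5 other MAPK phosphatases 4 were tested, and after TAK-981 1 rose and 3 fell in MM1S (median log2 −0.52) and 1 rose and 1 fell in MM1R (median 0.17). DUSP1, which dephosphorylates p38, JNK and ERK in the nucleus, rose in both lines (log2 0.75 ± 0.096 in MM1S, edgeR adjusted p = 4.08e-06, and 0.72 ± 0.096 in MM1R, edgeR adjusted p = 5.94e-06). DUSP7, a cytoplasmic ERK phosphatase close to DUSP6, fell in both (−0.51 ± 0.086 in MM1S, edgeR adjusted p = 8.06e-05, and −0.62 ± 0.078 in MM1R, edgeR adjusted p = 2.91e-06). DUSP16, a JNK phosphatase, fell in MM1S after TAK-981 (−0.53 ± 0.073, edgeR adjusted p = 7.53e-06) and after Dex (−0.45 ± 0.073, edgeR adjusted p = 6.55e-05). After Dex in MM1S, 1 of the 4 rose and 2 fell (median −0.25).

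Of 12 further Sprouty, SPRED and RAS inhibitors 10 were tested. After TAK-981, 3 rose and 2 fell in MM1S (median −0.050), and 6 rose and 3 fell in MM1R (median 0.31). RASAL1, a RAS GTPase activating protein, was at 0.41 and 0.517 CPM with vehicle and at 5.39 and 7.36 CPM with TAK in MM1S, and at 3.26 and 4.59 CPM and then 21.1 and 23.5 CPM in MM1R (log2 3.76 ± 0.29, edgeR adjusted p = 5.47e-09, and 2.51 ± 0.16, edgeR adjusted p = 3.91e-10). RASA1, another RAS GTPase activating protein, rose in both as well (log2 0.67 ± 0.088, edgeR adjusted p = 4.61e-06, and 0.82 ± 0.088, edgeR adjusted p = 4.28e-07). SPRY1, the Sprouty paralogue of SPRY2, was better expressed than SPRY2, at 17.02 and 18.0 CPM in vehicle MM1S. It fell after TAK-981 in MM1S (−0.55 ± 0.099, edgeR adjusted p = 0.000141) and rose after Dex to 47.9 and 51.9 CPM (log2 1.51 ± 0.087, edgeR adjusted p = 1.4e-10). In MM1R, SPRY1 was at 5.31 and 6.35 CPM with TAK against 7.07 and 8.04 CPM with vehicle. After Dex in MM1S, 2 of the 10 rose and 4 fell (median −0.27).

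The next list held 18 genes, 15 of them tested: other ERK output genes and the transcription factor genes SRF and ELK1. After TAK-981, 1 rose and 5 fell in MM1S (median log2 −0.20), and 2 rose and 6 fell in MM1R (median 0.083). MYC, the growth-promoting transcription factor, fell in both lines (log2 −0.68 ± 0.062, edgeR adjusted p = 4.45e-08, and −0.56 ± 0.062, edgeR adjusted p = 5.38e-07). EMP1 (−1.13 ± 0.21, edgeR adjusted p = 0.000176) and EGR1 (−0.88 ± 0.20, edgeR adjusted p = 0.00154) fell in MM1S. Both were low there, with vehicle libraries at 5.49 and 7.57 CPM for EMP1 and 4.32 and 7.18 CPM for EGR1. In MM1R, EMP1 was at 3.84 and 4.94 CPM with TAK against 6.10 and 6.86 CPM. EGR1 there was at 1.77 and 2.04 CPM against 3.02 and 3.42 CPM. ELK1 fell in MM1R (−0.33 ± 0.074, edgeR adjusted p = 0.00116). In MM1S its TAK libraries were at 33.6 and 35.4 CPM against 39.2 and 40.2 CPM. ETV4, the PEA3 group relative of ETV5, was at 0.165 and 0.331 CPM with vehicle and at 1.29 and 1.58 CPM with TAK in MM1R (edgeR adjusted p = 8.54e-05). After Dex in MM1S, 1 rose and 6 fell (median −0.63), among them CCND1, which encodes cyclin D1 (−1.73 ± 0.14, edgeR adjusted p = 1.22e-08), PHLDA1 (−0.79 ± 0.064, edgeR adjusted p = 1.25e-08) and FOS, an immediate early gene (−0.85 ± 0.12, edgeR adjusted p = 8.88e-06). MYC, from the same list, went the other way, at 456 and 471 CPM with Dex against 354 and 356 CPM with vehicle. ETV5 thus fell alongside CCND1, PHLDA1 and FOS after Dex, while MYC lay higher and the phosphatases DUSP4, DUSP5 and DUSP10 rose.

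Of 24 genes of the ERK cascade, all tested, 6 rose and 3 fell after TAK-981 in MM1S (median 0.091, with fewer called than the 49% of all genes), 3 rose and 4 fell in MM1R (median 0.033, against 53.4% of all genes), and 7 rose and 5 fell after Dex in MM1S (median 0.071). MAP2K1, the kinase directly above ERK, fell after TAK-981 (−0.32 ± 0.071, edgeR adjusted p = 0.00105 in MM1S, and −0.38 ± 0.071, edgeR adjusted p = 0.000193 in MM1R) and rose after Dex in MM1S (0.50 ± 0.069, edgeR adjusted p = 1.18e-05). Others rose after TAK-981: MAPK3 in MM1S (0.35 ± 0.069, edgeR adjusted p = 0.000382), its libraries overlapping in MM1R. BRAF (0.53 ± 0.077, edgeR adjusted p = 1.38e-05) and GAB1 (0.74 ± 0.10, edgeR adjusted p = 1.81e-05) rose in MM1R, and their TAK libraries lay above vehicle in MM1S. GAB1 also rose after Dex in MM1S (0.90 ± 0.10, edgeR adjusted p = 2.86e-06). Of 18 genes of the JNK and p38 cascades, all tested, 5 rose and 6 fell after TAK-981 in MM1S (median −0.011), 5 rose and 5 fell in MM1R (median −0.036), and 7 rose and 3 fell after Dex in MM1S (median 0.091). MAP2K6, the kinase above p38, rose after TAK-981 in both lines (log2 0.87 ± 0.12, edgeR adjusted p = 1.35e-05, and 1.06 ± 0.13, edgeR adjusted p = 2.44e-06). After TAK-981, MAPK9 fell in MM1S (−0.42 ± 0.068, edgeR adjusted p = 5.17e-05) and MAPK13 fell in MM1R (−0.82 ± 0.078, edgeR adjusted p = 9.96e-08). Both also lay lower with TAK in the other line. MAPK9 was at 43.9 and 44.3 CPM against 59.0 and 61.5 CPM with vehicle in MM1R. MAPK13 was at 97.2 and 118 CPM against 137 and 145 CPM in MM1S. MAP3K5, a stress-activated kinase at the head of both cascades, rose after Dex in MM1S (log2 1.52 ± 0.065, edgeR adjusted p = 2.15e-12). After Dex in MM1R, edgeR called 0 of the 71 tested genes of these 5 lists, with 1, MAP2K6, at an unadjusted p under 0.05.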

How the data were processed

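RNA-seq counts were used as deposited: the authors gave 1 whole-number read count per gene symbol and library, with hg19 positions and gene lengths in kb, for 23354 genes in 16 libraries. The submitters' processing notes name bcl2fastq 2.18.0.12, STAR 2.6.0, HTSeq 0.6.0, edgeR 3.28.1 and hg19; whether counting used strand is not given in the sources used here. Reads shared by paralogues or overlapping genes depend on that counting.

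Libraries were matched to groups by their labels. In edgeR 4.0.16 (R 4.3.3), genes passing filterByExpr (14215) were scaled with TMM and fitted with 1 term per group over all 16 libraries by the robust quasi-likelihood method, with an F test for each of 12 contrasts and Benjamini-Hochberg adjustment over all genes tested, at 0.05. Standard errors and 95% intervals come from the same fit, on the log2 scale. SPRY2, with 3 counts in each vehicle MM1S library, is given as ratios of summed counts with exact intervals, which cover counting error only. CPM values use TMM-scaled library sizes, and CPM per kb the deposited lengths. Median depth was 19108821 counts per library in MM1S and 22656931 in MM1R.

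The members and the pathway lists were chosen with earlier results of these data known. Named list genes were up to 3 per list with the smallest adjusted p past the threshold for TAK-981 in each line and for Dex in MM1S, and a selection of these is printed. Genes with the most similar pattern were the 2 tested genes per member with the highest Pearson r over the libraries, at a mean log2 CPM of at least 3. One such gene is not reported here. Alternatives were edgeR's RLE scaling, unscaled library sizes, no filter, DESeq2 1.42.0, only the groups compared, a replicate block, and leaving out each library. Data were also simulated from the mean levels and pooled dispersions of all 16 libraries (13882 genes tested). Changes were placed in the MM1S TAK group, only in genes above a minimum mean count that SPRY2 did not reach. There the test called 83% of 1.5-fold and 96% of 2-fold changes. These shares do not cover genes with few counts or the larger spread of the real MM1S TAK libraries. No columns were left out. Promoter windows were RefSeq's (GRCh38.p14), with no coordinates converted between builds.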

Additional observations from a re-analysis of the deposited data

Results flagged for a closer look

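The changes after TAK-981 differed between MM1S and MM1R, by a test of the difference itself, for 4 members. The log2 difference (MM1R change less MM1S change) was −0.58 for DUSP4 (edgeR adjusted p = 0.00114), 0.57 for ETV5 (edgeR adjusted p = 0.00231), 0.55 for SPRED2 (edgeR adjusted p = 0.00196) and 0.48 for SPRED1 (edgeR adjusted p = 0.0337). The SPRED1 call was lost in fits that left out single libraries.

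The changes after Dex differed between the lines for 6 members. The log2 difference was 1.35 for ETV5 (edgeR adjusted p = 2.08e-08), 0.72 for SPRED2 (edgeR adjusted p = 1.21e-05), −0.81 for DUSP10 (edgeR adjusted p = 0.00168), −0.71 for DUSP4 (edgeR adjusted p = 7.85e-06) and −0.61 for DUSP5 (edgeR adjusted p = 6.28e-06). For SPRY2 the fitted difference was −1.91 (edgeR adjusted p = 0.0485), which rests on 6 counts in vehicle MM1S and depends on the prior count. The SPRY2 call was lost with unscaled library sizes, without the filter, with DESeq2, with only the groups compared, and in 13 of the fits that left out 1 library. NR3C1, which encodes the receptor for Dex, was at 280 ± 4.3 CPM (SD, n = 2) in vehicle MM1S and 18.9 ± 1.4 CPM in vehicle MM1R, and its part in these differences was not tested.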

How the results depend on the processing

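The TAK-981 calls of DUSP4, DUSP10 and SPRED1 in both lines and of SPRED2, DUSP5 and ETV5 in MM1R, and the Dex calls of DUSP4, DUSP5, DUSP10, SPRED2 and ETV5 in MM1S, held under every alternative and with each library left out. Unscaled library sizes turned 3 values that had not passed: SPRED1 after Dex in MM1S (−0.0071), DUSP6 between combo and TAK in MM1S (0.0050) and the DUSP6 line difference after TAK-981 (0.032). Without the filter on low counts, edgeR called 30 genes after Dex in MM1R (main 0), 9 between combo and TAK in MM1R (main 0) and 1313 for the line difference after TAK-981 (main 592). With only the groups compared, 3 genes were called between combo and TAK in MM1R and 779 for the TAK-981 by Dex interaction (main 2125). The cause was not tested.

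Leaving out 1 library gave 1 to 3 members between combo and TAK in MM1S (1 without MM1S TAK library 1 or either MM1R TAK library, main 2). Over all genes it gave 0 to 9 after Dex in MM1R (9 without vehicle library 1), 0 to 1 between combo and TAK in MM1R, 200 to 2292 for the line difference after TAK-981 (2292 without MM1S TAK library 1, 200 without MM1R TAK library 1) and 1044 to 3724 for the interaction (3724 without MM1S TAK library 1, 1044 without MM1S vehicle library 1). Signs turned in such fits only for values that had not passed. These ranged for DUSP2 from −0.23 to 0.52 (Dex, MM1S), −0.39 to 0.049 (Dex, MM1R), −0.15 to 0.36 (combo against vehicle, MM1S), −0.10 to 0.23 (line difference, TAK-981) and −0.67 to 0.081 (line difference, Dex), and for SPRED1 from −0.029 to 0.066 (Dex, MM1S), −0.037 to 0.28 (Dex, MM1R) and −0.057 to 0.26 (line difference, Dex). For SPRED2 after Dex in MM1R they ranged from −0.062 to 0.0080. For combo against TAK they ranged for DUSP10 from −0.019 to 0.18 in MM1S and −0.10 to 0.055 in MM1R, and for DUSP6 from −0.046 to 0.062 in MM1R, and for the DUSP6 line difference after TAK-981 from −0.069 to 0.040. For SPRY2 they ranged from −0.12 to 0.53 (TAK-981, MM1R), −0.52 to 0.14 (Dex, MM1R), −1.45 to 0.090 (line difference, TAK-981) and −1.36 to 0.18 (interaction).

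Libraries of a line share replicate numbers, and the deviations of same-numbered libraries correlated at 0.15 to 0.62 in MM1S and 0.072 to 0.25 in MM1R, but nothing in the labels says that a number marks a shared batch. With a replicate block, 4 members were called between combo and TAK in MM1S (main 2), and over all genes 2061 for the line difference after TAK-981 and 3579 for the interaction. The members gained were SPRED1 (edgeR adjusted p = 0.0238) and SPRED2 (0.0227) between combo and TAK in MM1S, DUSP4 in the interaction (0.00935, so 5 members and not 4), DUSP2 after TAK-981 in MM1S (0.00425) and after the combo in MM1R (0.00347), DUSP6 after the combo in MM1S (0.0403) and DUSP5 in the line difference after TAK-981 (0.0145). The block changed no other member's call. The DUSP5 line difference (main 0.24, adjusted p = 0.0774) also passed with DESeq2 and with unscaled library sizes. With 2 libraries per group, SPRY2 and DUSP2 are the members whose depth and spread limit what could be detected.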

Other observations

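The genes closest in pattern to each member are given as a description over the 16 libraries, which share lines and treatments and are not independent points. They were picked as the highest correlations among all tested genes with a mean log2 CPM of at least 3. No comparison with other genes was made, so high values do not set the members apart. DUSP4 had INTS10 among the genes closest to it (Pearson r of log2 CPM 0.99, n = 16), SPRED1 was most like RASGEF1B (0.99) and CBLN3 (0.99), and DUSP10 most like MAF (0.98) and PEAK1 (0.98). SPRED2 was most like BNIP3L (0.98) and VCL (0.96), ETV5 most like PDE4B (0.96) and SLC12A4 (0.96), DUSP5 most like MYO5A (0.96) and DIP2B (0.96), DUSP6 most like GRINA (0.95) and TOB1 (0.94), and DUSP2 most like ZCCHC17 (0.94) and PIK3R2 (0.94). SPRY2, with few counts, reached 0.87 with EP400 and 0.85 with DBNL.

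Among the members themselves, DUSP4 and SPRED1 ran opposite to each other (r = −0.92, n = 16 libraries). DUSP2 and SPRED1 (−0.81) and DUSP4 and SPRED2 (−0.81) also did. DUSP5 and DUSP6 ran together (0.90), as did DUSP10 and SPRED1 (0.86) and SPRED1 and SPRED2 (0.79).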
